A study of Homo sapiens with 8 samples.

Results

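The genes of the CoREST co-repressor complex were examined for open chromatin: RCOR1, RCOR2, RCOR3, KDM1A, HDAC1, HDAC2, PHF21A and HMG20B, together with REST, a DNA-binding partner that recruits the complex. They were chosen because their products form, or recruit, the complex that the compound Corin inhibits, and not from a measured value. A region of open chromatin was assigned to a gene when it overlapped the gene body or the 25 kb on either side of it (GENCODE annotation on hg38). By this rule 115 of the 161291 regions called in any treatment belonged to the 9 genes, and no region belonged to 2 of them.

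Accessible DNA was profiled by ATAC-seq, which reads the places where a transposase can insert. The cells were U-937, a human monocytic line, after 24 h of treatment. The 4 groups received DMSO (the vehicle), all-trans retinoic acid (ATRA, the ligand of the retinoic acid receptors) at 0.1 µM, Corin at 0.1 µM, or ATRA and Corin at 0.1 µM each, called the combination here, and each had 2 samples, 8 in all. Each group was available as 1 peak list in which the replicates had been combined, so no value has a spread between replicates, no difference between treatments was tested, and all cells were of a single line. The read depth is unknown.

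CoREST joins a lysine demethylase and histone deacetylases on 1 scaffold. RCOR1, RCOR2 and RCOR3 are alternative scaffolds, KDM1A (LSD1) removes methyl groups from lysine 4 of histone H3, HDAC1 and HDAC2 remove acetyl groups, PHF21A (BHC80) reads unmethylated lysine 4, and HMG20B (BRAF35) is an HMG-box subunit. REST brings the complex to neuronal genes, which it keeps silent outside neurons, and in blood cells CoREST with KDM1A acts beside the repressors GFI1 and GFI1B. Corin is a dual inhibitor of the demethylase and deacetylase activities of the complex.

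The 4 lists held between 189896 and 222491 peaks, merged into 116563 regions (DMSO), 113914 (ATRA), 101851 (Corin) and 94917 (combination). The fold of a region is the authors' highest value of read pileup over local background among its peaks. Its scale differed between lists: over the 66303 regions called in all 4, the median fold was 8.74 with DMSO, 11.8 with ATRA, 7.93 with Corin and 8.81 with the combination. A ratio of folds between lists thus carries that scale, 1.24 at the median for ATRA over DMSO, and regions are compared by rank, the percentile of their fold among those 66303 regions within a list, where 100 is the highest. The faintest callable region also differed. At the lowest background of each list near the 9 genes, a call needed a pileup of 25 reads with DMSO and 17 with ATRA. With Corin it needed 22 and with the combination 23. Of 10 myeloid marker genes, 7 had an open promoter with DMSO, ATRA and the combination and 8 with Corin, SPI1, CD33, ITGAM and CSF1R in every list, while CD14 and MPO had none in any list. Among other cell types, 3 of 4 B cell, 1 of 3 T cell and, with DMSO, 1 of 3 erythroid, 3 of 3 epithelial and 2 of 3 neuronal marker genes had an open promoter, so an open promoter alone does not mark a lineage here.

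The sequences below are 200-base windows centred on the strongest summit of 6 regions described further on, 4 inside the gene bodies, 1 next to an internal start of KDM1A and 1 in the upstream flank of RCOR1, read 5′ to 3′ on the plus strand of hg38. Positions are in kb from the canonical start, along the direction of the gene, and are negative upstream. Capitals mark matches, on either strand, to the motifs searched: GAGGAAGT for PU.1, TGTGGT for RUNX and CCAAT for the CCAAT box. They are shown because these are among the places where the lists differed most.
KDM1A at +59.8 kb, chr1:23079276-23079475, called in all 4 lists and weakest with Corin and the combination: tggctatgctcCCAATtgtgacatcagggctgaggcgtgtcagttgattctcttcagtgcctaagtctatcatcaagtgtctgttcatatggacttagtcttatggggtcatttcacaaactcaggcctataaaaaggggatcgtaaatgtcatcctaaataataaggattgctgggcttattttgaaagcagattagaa
HDAC1 at +24.4 kb, chr1:32316299-32316498, called with ATRA only: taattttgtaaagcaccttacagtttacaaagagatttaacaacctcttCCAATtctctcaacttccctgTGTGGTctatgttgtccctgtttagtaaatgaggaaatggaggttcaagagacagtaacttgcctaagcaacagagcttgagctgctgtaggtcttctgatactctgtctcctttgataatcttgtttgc
PHF21A at +39.6 kb, chr11:46081790-46081989, called with ATRA only: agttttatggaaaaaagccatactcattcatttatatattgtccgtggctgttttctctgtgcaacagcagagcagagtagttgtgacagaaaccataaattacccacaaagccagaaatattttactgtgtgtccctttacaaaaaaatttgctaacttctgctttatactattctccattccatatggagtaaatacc
PHF21A at +14.9 kb, chr11:46106623-46106822, called in all lists but the combination: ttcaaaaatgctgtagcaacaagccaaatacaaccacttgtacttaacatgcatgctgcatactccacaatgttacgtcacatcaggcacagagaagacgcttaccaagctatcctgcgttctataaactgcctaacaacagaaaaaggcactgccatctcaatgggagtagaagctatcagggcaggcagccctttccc
RCOR1 at -18.9 kb, chr14:102573619-102573818, highest with ATRA and next with the combination: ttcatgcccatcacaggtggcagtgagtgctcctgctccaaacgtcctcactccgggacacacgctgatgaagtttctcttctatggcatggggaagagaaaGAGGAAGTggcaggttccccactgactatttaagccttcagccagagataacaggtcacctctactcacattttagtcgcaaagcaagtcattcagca
HDAC2 at -23.9 kb, chr6:113994949-113995148, lower with each treatment than with DMSO: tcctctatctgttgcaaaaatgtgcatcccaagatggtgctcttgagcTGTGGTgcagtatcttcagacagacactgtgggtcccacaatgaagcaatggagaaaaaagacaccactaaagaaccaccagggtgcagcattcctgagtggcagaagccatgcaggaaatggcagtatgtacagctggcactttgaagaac

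In these windows the PU.1 match stood in the RCOR1 window at -18.9 kb and RUNX matches in the windows of HDAC1 and HDAC2. Such letters were not rare: RUNX stood in 20.7% and PU.1 in 6.73% of the windows of all 161291 regions, against 18.3% (21) and 3.48% (4) of the 115 windows of the 9 genes. The AP-1 letters TGANTCA were found in 2 of the 115 windows (1.74%), against 12.2% of all windows. None of the 115 held the direct repeat of retinoic acid receptors with a spacer of 5, which 0.018% of all windows held, and 3 held GGACAGC, part of the RE1 element that REST binds (2.61%, against 4.14%). A match is a description of the letters and not of binding. Most windows were unique in the genome, since 103 of the 115 had no stretch of 32 bases found elsewhere in hg38.

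All 9 genes were open at their start in every list. By comparison, 15 of 15 other genes associated with CoREST and 28 of 28 genes of other histone deacetylase complexes had a start region called in all 4 lists. Against DMSO, the rank at the canonical start differed by at least 20 points for RCOR2 with Corin (26 points), and for RCOR3 (-20.0) and REST (-22.6) with ATRA, and by less for the other genes and treatments. With DMSO the start of RCOR2 was the weakest and that of HDAC1 the strongest. The plot of folds at the canonical starts shows the 4 values of each gene.

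**Figure D1:**
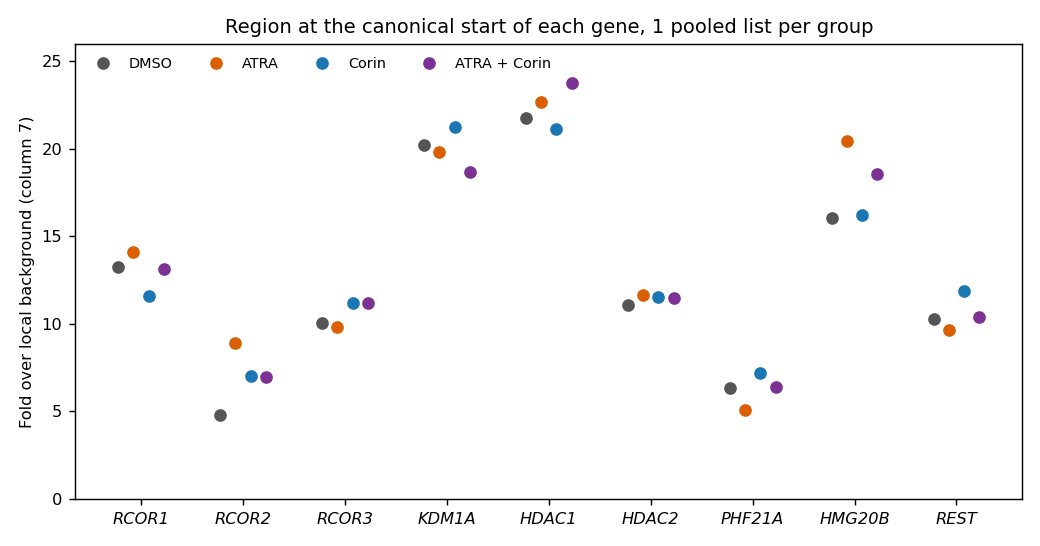
Highest fold over local background of the region at the canonical start of each of the 9 genes (y axis, from 0), with 1 point for each of the 4 pooled lists. HDAC1, KDM1A and HMG20B are the 3 highest in every list, from 16 to 23.8, and RCOR2 and PHF21A the 2 lowest, from 4.77 to 8.90.

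Of the scaffolds, RCOR1 had the strongest start, a region of chr14:102591405-102593739, with folds of 13.3 with DMSO, 14.1 with ATRA, 11.6 with Corin and 13.2 with the combination. Its ranks in that order were 76.7, 62.7, 71.0 and 73.6. RCOR2, the scaffold gene with the weakest start with DMSO, was open there (chr11:63916930-63917530) at folds of 4.77, 8.90, 7.05 and 6.97. The DMSO value was the lowest of the 4, and its 95% counting interval (4.02 to 5.62) did not meet those of ATRA (7.58 to 10.4), Corin (6.05 to 8.17) or the combination (6.01 to 8.05). The intervals of the pileups themselves did overlap, at 119 to 166, 136 to 187, 151 to 204 and 159 to 214 reads in that order. The fold intervals take the local backgrounds, 28.75, 17.1, 24.1 and 25.68 reads, as known. The rank of RCOR2 went from 17.9 with DMSO to 43.8 with Corin, the largest rank gain with Corin among the 53 regions of the 9 genes called in every list, although within promoters alone the difference was 14.0 points. The RCOR3 start (chr1:211258702-211260007) had folds of 10.0, 9.81, 11.2 and 11.2, and its rank was lowest with ATRA, at 38.8, against 58.8, 69 and 63.7. These intervals, like all in the text, cover the counting of reads in 1 pooled list and not variation between cultures. They allow neither for the picking of regions by their differences nor for the scale of fold that differs between lists.

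Among the enzyme genes, KDM1A and HDAC1 stood near the top of each list. The KDM1A start (chr1:23018928-23020409) had folds of 20.2, 19.8, 21.3 and 18.7 in the order DMSO, ATRA, Corin, combination, with ranks of 97, 87.2, 98.3 and 92.9. HDAC1 (chr1:32291506-32292777) had folds of 21.8, 22.7, 21.1 and 23.8 and ranks between 94.2 and 99.1. HDAC2 (chr6:113969912-113971763) had folds of 11.1, 11.7, 11.6 and 11.5, a range of under 1, while its rank was 49.6 with ATRA and between 65.3 and 70.8 in the other lists. At each of the 3 starts the counting intervals of Corin and DMSO overlapped, for HDAC1 at 20.1 to 22.2 and 20.7 to 22.9.

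Among the accessory subunits, PHF21A was weakly open at its canonical start (chr11:46120348-46122472), with folds of 6.36, 5.07, 7.22 and 6.42 and ranks of 31.5, 12, 45.1 and 33.7. The strongest start region of PHF21A with DMSO was an internal one at +156.2 kb (chr11:45964926-45965508), near the start of a shorter transcript, and its folds were 10.4, 12.2, 6.72 and 7.50. There the counting intervals of Corin (5.44 to 8.21) and DMSO (8.81 to 12.3) did not meet. HMG20B, whose start region (chr19:3572453-3573427) also holds the start of the neighbouring gene MFSD12, had folds of 16, 20.5, 16.2 and 18.5 and ranks between 88.0 and 92.7. REST (chr4:56907516-56909596) had folds of 10.3, 9.67, 11.9 and 10.4, and its rank was 38.0 with ATRA against 60.6, 72.4 and 59.3 in the other lists.

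With ATRA, 7 of the 9 canonical starts had a lower rank than with DMSO and 2 a higher one, with a median difference of -14.0 points. The same held for 12 of 14 other CoREST-associated genes and 24 of 28 genes of other deacetylase complexes, with medians of -9.95 and -8.70. Promoters as a class moved this way: over all 15960 promoter regions called in every list the median rank difference was -6.11 points, close to the -6.05 of the 27 promoter regions of the 9 genes. Beside it, the median ratio of the ATRA fold to the DMSO fold was 1.13 over all promoter regions and 1.29 over all other regions. In the combination list, 9 of 9 canonical starts ranked higher than in the ATRA list, as did 13 of 14 and 26 of 28 in the other gene lists. With Corin against DMSO, 7 ranked higher and 2, those of RCOR1 and HDAC1, lower. In the other gene lists 9 of 14 and 20 of 28 ranked higher with Corin, as did 9511 of all 15960 promoter regions. The comparisons share lists, and so are not independent of each other.

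RefSeq promoters (GRCh38.p14, 250 bases before the start to 50 after it) were given for 8 of the 9 genes, in 12 entries. They were rich in CpG, with a median of 36 CpG and 73.2% GC, against 14 CpG and 58.7% over 35116 promoters. The GC box GGGCGG stood in 10 of the 12 entries, against 45% of all promoters, and CCAAT in 4, against 34.6%. The letters GGACAGC of RE1 stood in 3 entries, 1 each of RCOR1, PHF21A and REST, against 6.03% of all promoters. The AP-1 letters stood in 1 entry, of REST. The 250 bases before the starts of RCOR1 and HDAC1, the strongest scaffold and enzyme starts, are shown on their coding strand, with GC boxes, CCAAT boxes and, in RCOR1, the reverse complement of GGACAGC in capitals.
RCOR1 promoter, chr14:102592399-102592648: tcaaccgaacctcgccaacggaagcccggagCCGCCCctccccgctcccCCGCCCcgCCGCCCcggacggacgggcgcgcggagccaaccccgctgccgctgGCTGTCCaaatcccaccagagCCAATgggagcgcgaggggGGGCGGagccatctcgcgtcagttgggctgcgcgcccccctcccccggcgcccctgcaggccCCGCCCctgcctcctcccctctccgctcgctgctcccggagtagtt
HDAC1 promoter, chr1:32291833-32292082: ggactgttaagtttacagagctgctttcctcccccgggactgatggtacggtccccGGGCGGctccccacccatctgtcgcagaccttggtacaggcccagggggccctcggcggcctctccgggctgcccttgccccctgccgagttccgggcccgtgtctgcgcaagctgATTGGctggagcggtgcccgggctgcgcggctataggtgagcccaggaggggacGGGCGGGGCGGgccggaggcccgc

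Away from the starts the lists differed far more. Of the 115 regions, 53 (46.1%, 95% Wilson interval 37.3 to 55.2) were called in all 4 lists, against 41.1% of all regions. Promoter regions, within 1 kb of any protein-coding start, were called in all lists in 27 of 39 cases (69.2%; 64.1% of all promoters), and other regions in 26 of 76 (34.2%; 36.9% of all others). ATRA alone had 21 regions (18.3%), against 11.4% over all regions, DMSO alone had 7 (6.09%, against 10.2%), Corin alone 8 (6.96%, against 8.05%) and the combination alone 5 (4.35%, against 3.93%). The 21 lay near RCOR1 (6), PHF21A (6), KDM1A (3), RCOR3 (2), RCOR2, HDAC1, HDAC2 and REST (1 each), and none lay near HMG20B. Regions called in a single list were mostly weak, with median folds of 2.24 (DMSO), 3.34 (ATRA), 1.98 (Corin) and 2.14 (combination), but those of ATRA reached 13.1. The map of called regions shows the rows of the 4 lists along each gene.

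**Figure D2:**
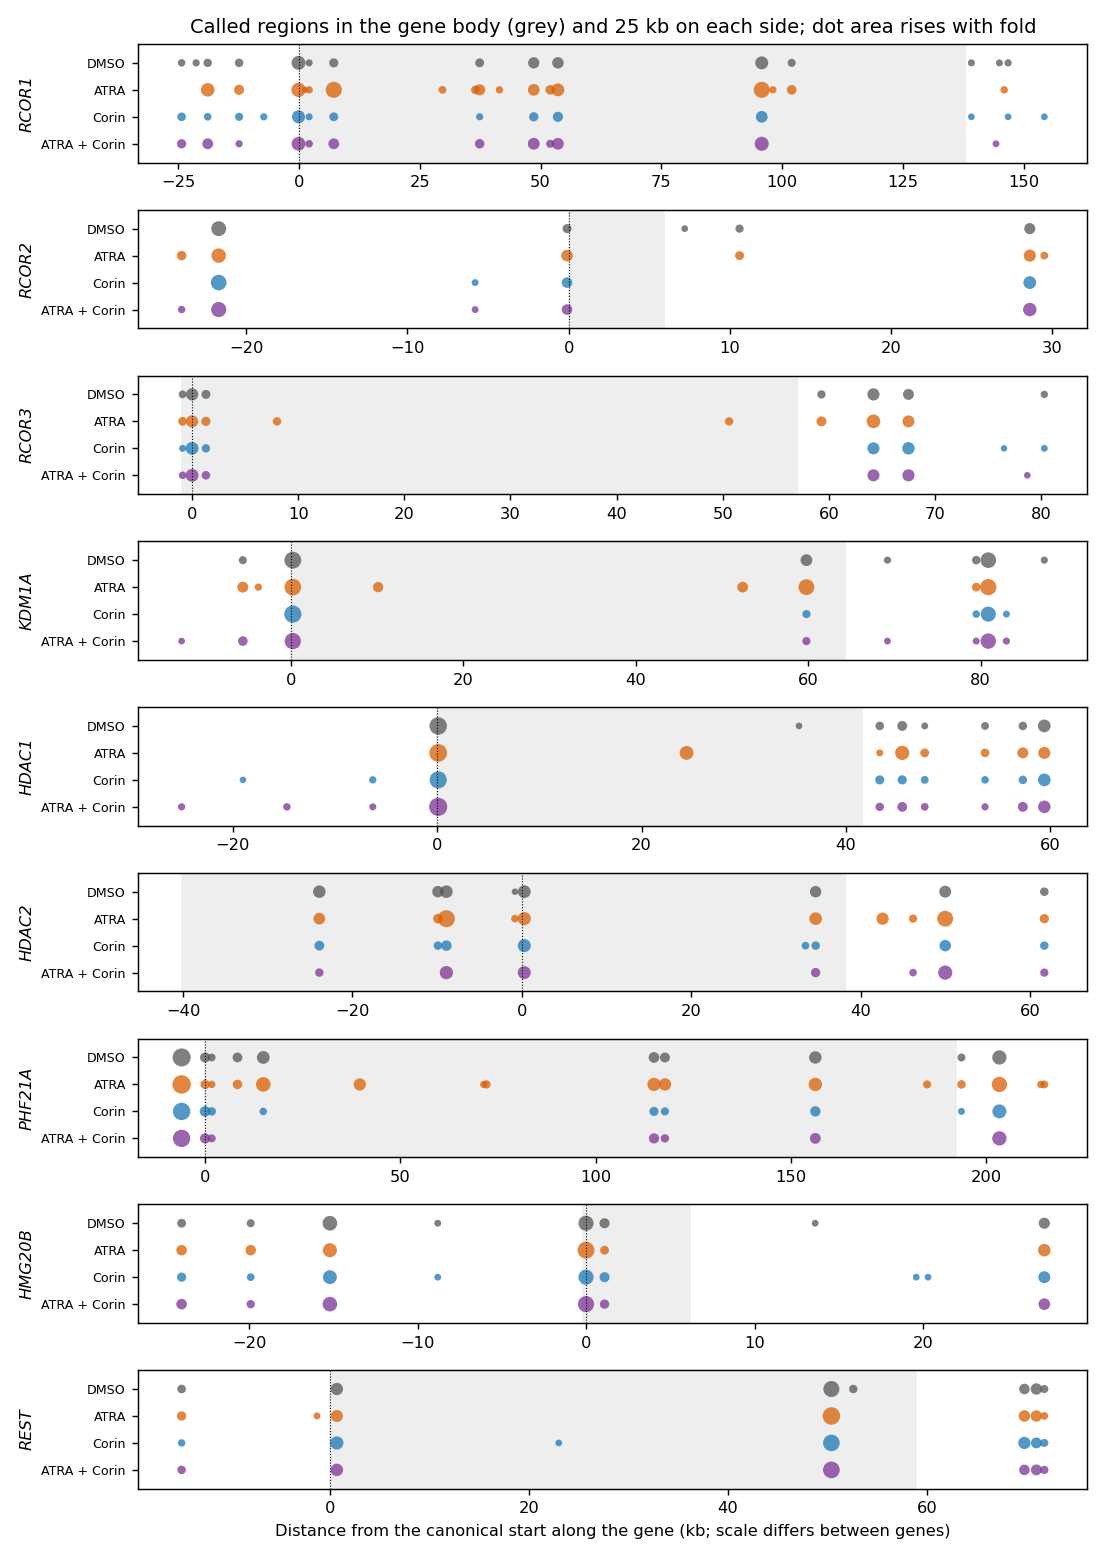
Called regions of the 9 genes by list (rows) against distance from the canonical start in kb (x axis, scale differing between genes), with dot area rising with fold and the gene body in grey. The ATRA rows hold isolated dots inside RCOR1, RCOR3, KDM1A, HDAC1 and PHF21A that the other rows lack.

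Against DMSO, ATRA gained 24 of the 99 regions called in either list (24.2%, 16.9 to 33.5), where a gained region is called with the treatment and not with DMSO, against 18.5% of all regions. It lost 13 of 99 (13.1%, 7.84 to 21.2), against 20.7% of all. Corin gained 11 of 86 (12.8%, against 13.4%) and lost 14 (16.3%, against 24.6%). The combination gained 11 of 86 over DMSO (12.8%, against 12%) and lost 19 (22.1%, against 27.9%). Compared with ATRA, the combination gained 10 of 96 (10.4%, against 11.5%) and lost 29 (30.2%, against 25.4%). Compared with Corin, it gained 10 of 82 (12.2%, against 16.1%) and lost 15 (18.3%, against 21.1%). In each of these 10 shares the background value lay inside the 95% Wilson interval of the 9 genes. Several shares moved by more than 1.5 times under stricter settings. With lists cut to equal length, the gain with ATRA was 15.6% (against 15.3% of all regions) and its loss 3.9% (against 15.5%), Corin gained 7.14% (against 16%) and lost 10% (against 16.4%), and the combination lost 13% against DMSO (17.2% of all) and 8.22% against Corin (17.1% of all). With −log10 q of at least 5, ATRA lost 5.68% (against 14.1%), Corin gained 4.29% (against 8.65%), and the combination gained 8.22% over DMSO (against 10%) and 4.6% over ATRA (against 6.59%) and lost 7.58% against Corin (against 14.7%). At equal length the background lay above the interval of the 9 genes for the loss with ATRA (1.33 to 10.8), the gain with Corin (3.09 to 15.7) and the loss of the combination against Corin (3.82 to 16.8), and at the stricter q for the loss with ATRA (2.45 to 12.6).

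Inside the gene bodies the gain with ATRA and the loss of the combination against ATRA were larger, and the other shares given here were smaller. The bodies held 32 regions more than 1 kb from any protein-coding start, a subset chosen after the values were seen, so that its shares are a description. ATRA gained 13 of the 30 called with ATRA or DMSO (43.3%, 27.4 to 60.8) and lost 1 (3.33%), against 21.6% and 22.1% of all such regions in protein-coding genes. The combination lost 16 of the 29 called with ATRA or the combination (55.2%, 37.5 to 71.6) and gained none, against 30% and 11.8%. Corin gained 2 and lost 3 of the 19 called with Corin or DMSO, against 15% and 27.9%. By pattern, 12 of the 32 were called with ATRA only, 12 in all lists, 2 with DMSO and ATRA, 2 in all but the combination, 2 with Corin only, and 1 each with DMSO only and with ATRA and the combination.

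The 12 regions called with ATRA only lay in 5 genes: 5 in RCOR1, 3 in PHF21A, 2 in RCOR3 and 1 each in KDM1A and HDAC1. Their folds ran from 1.42 to 13.1, with a median of 3.90, and their pileups from 23 to 150 reads, with a median of 39.5. Without RCOR1, which holds 13 of the 32 regions, ATRA gained 41.2% and the combination lost 62.5%. Without PHF21A these shares were 43.5% and 50%. Both shares were lower with the 4 lists cut to the same number of regions, where ATRA gained 4 of 21 (19%, against 18.6% of all such regions) and the combination lost 7 of 20 (35%, against 19.4%). Near the 9 genes, the lowest local background of the ATRA list was 9.12 reads, against 12.8 to 13.9 in the other lists. The part of this lower floor in the gains was not tested. At some regions the ATRA background lay below that of DMSO, as at RCOR1 +7.2 kb (9.12 against 12.8). At others it lay above, as at KDM1A +59.8 kb (21.7 against 16.8).

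**Figure D3:**
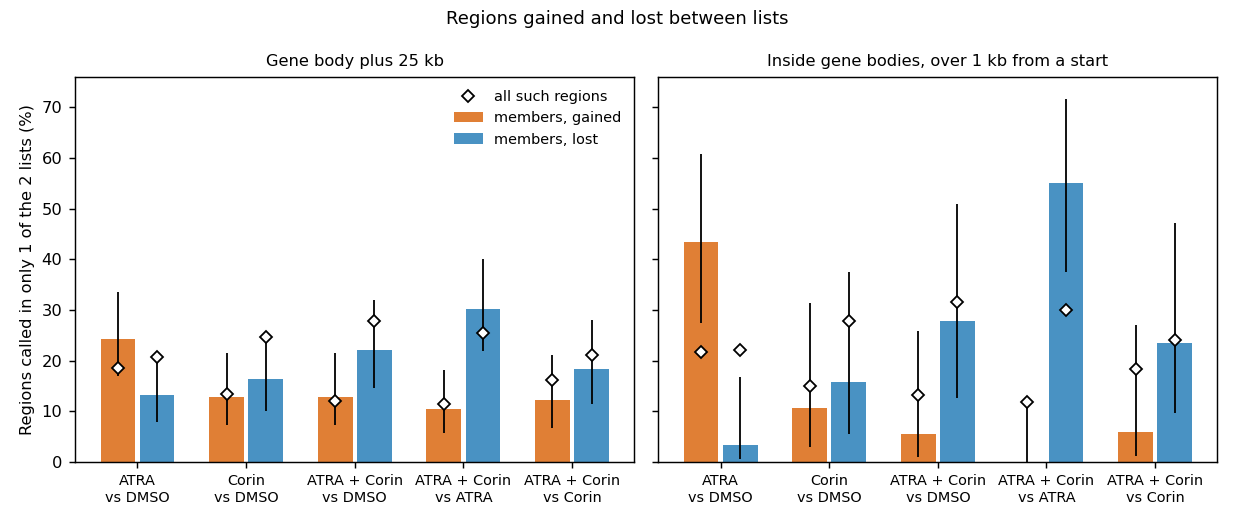
Share of regions called in only 1 of the 2 lists compared (y axis, percent), for the whole windows (left) and inside the gene bodies (right), with bars for the 9 genes, lines for 95% Wilson intervals and diamonds for all such regions. On the left the bars sit near the diamonds, and on the right the gain with ATRA (43.3%) and the loss with the combination against ATRA (55.2%) stand above theirs.

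RCOR1 had an intronic region and a flank region with their highest fold with ATRA and a lower one with the combination, but not all of its regions followed that order. The intronic region at +7.2 kb had folds of 4.93 with DMSO, 18.5 with ATRA, 4.60 with Corin and 7.50 with the combination. Its rank, 19.3 with DMSO and 82.7 with ATRA, showed the largest gain with ATRA among the 53 regions called in all lists, and was 23.6 with Corin and 41.5 with the combination. The ATRA interval (15.9 to 21.3) lay above those of the other 3 lists, of which the highest ended at 9.01. This region was picked for its rank gain with ATRA, so the gap between intervals is no separate evidence of it. In the window at +7.2 kb, 16% of the 32-base stretches had a copy elsewhere in the genome, with up to 15 other copies. The flank region at -18.9 kb (chr14:102573556-102573952), outside any protein-coding gene, had folds of 3.91, 12.7, 2.97 and 7.57, from pileups of 53, 127, 41 and 112 reads. ATRA and the combination were high there and DMSO and Corin low, and the 2 pairs of intervals did not meet. This region had the largest rank gain of the combination over DMSO, from 11.0 to 41.9, and over Corin, from 7.6.

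RCOR1 also had an intronic region at +52.0 kb (chr14:102644454-102644875) called with ATRA at 5.49 and with the combination at 3.55 only. Its window was the 1 of the 115 with the cAMP response element TGACGTCA, which 0.298% of all windows held. The region at -24.3 kb (chr14:102568149-102568464) was called at 2.79 with DMSO, 4.22 with Corin and 5.16 with the combination but not with ATRA. Of the 25 regions of RCOR1, the most of any of the 9 genes, 9 were called in all lists. The strongest intronic one with DMSO, at +95.8 kb, had folds of 11.5, 18.3, 9.05 and 13.6, highest with ATRA. At +48.6 kb the folds were 8.22, 8.98, 5.09 and 9.24, lowest with Corin and highest with the combination. In that window 58% of the 32-base stretches had a copy elsewhere in the genome, with up to 1055 other copies. The part of repeated sequence in these folds was not tested.

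RCOR2 is short, and none of its regions lay inside the gene body away from the start. In its flanks, the region at -24.0 kb (chr11:63940858-63941373), within the gene NAA40, was called with ATRA at 5.55 and with the combination at 2.79. That at +29.5 kb (chr11:63887467-63887779), near a start of MARK2, was called with ATRA alone at 3.29. The neighbouring MARK2 promoter at +28.6 kb (chr11:63888077-63888981) had folds of 8, 9.87, 11.0 and 12.4, and the largest rank gain of the combination over ATRA, from 39.1 to 69.9. RCOR3 had 2 intronic regions with ATRA only, at +8.0 kb (chr1:211267238-211267531) and +50.6 kb, both with a fold of 3.95, and the former was not called in any list once lists were cut to equal length. Downstream of RCOR3, the region at +59.3 kb (chr1:211318456-211318899) was called with DMSO at 3.83 and ATRA at 6.12, and in neither list with Corin.

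KDM1A held the region with the largest rank difference in any of the 5 comparisons. At +59.8 kb (chr1:23078880-23079687), next to an internal transcript start and overlapping an exon, the fold was 9.11 with DMSO, 17.6 with ATRA, 3.62 with Corin and 3.62 with the combination, from pileups of 161, 399, 51 and 53 reads. Both lists with Corin were low and ATRA was high, with intervals of 7.77 to 10.6 (DMSO), 16 to 19.5 (ATRA), 2.71 to 4.73 (Corin) and 2.72 to 4.71 (combination). In rank it stood at 52.5, 79.4, 13.9 and 10.8, which was the largest drop with Corin against DMSO and with the combination against ATRA among the 53 regions. The local background, at 16.8, 21.7, 13.4 and 13.9 reads, varied far less than the pileup.

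A further region of KDM1A near an internal start, at +52.4 kb (chr1:23071681-23072152), was called with ATRA only, at 7.41 from 74 reads, as was the intronic one at +10.1 kb, at 6.72. Upstream, the region at -5.6 kb (chr1:23013640-23014087), at a start of TEX46, was called at 3.48 with DMSO, 7.72 with ATRA and 5.60 with the combination but not with Corin. The folds at the strong start of KDM1A, 18.7 to 21.3, lay closer together than those at +59.8 kb. The rank of that start was nonetheless 97 with DMSO and 87.2 with ATRA.

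Away from its start, HDAC1 had a single region inside its gene body with ATRA, at +24.4 kb (chr1:32316102-32316776), overlapping an exon of an HDAC1 transcript. Its fold of 13.1 (11.0 to 15.6), from 132 reads over a background of 9.12, was the highest of the 41 regions called in 1 list, and no other list called it. The ATRA folds of the 53 shared regions ran from 2.32 to 24.7, with a median of 9.81, so that this region stood above their middle. In the upstream flank, which holds the gene LCK, the region at -14.7 kb (chr1:32277100-32277601) was called with the combination only, at 2.79. Downstream, the region at +45.5 kb by a start of MARCKSL1 had folds of 6.09, 14.0, 5.02 and 5.87, highest with ATRA. Its pileups were 1283, 1553, 1149 and 1593 reads, highest with the combination, over local backgrounds of 209.8, 110, 228 and 270 reads, lowest with ATRA. The adjacent promoter region of MARCKSL1 at +43.3 kb had folds of 4.23, 2.32, 4.85 and 4.01, lowest with ATRA.

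HDAC2 had its highest fold with DMSO at 2 places inside the introns of its longer transcripts. At -23.9 kb (chr6:113994879-113995243), also in an exon of the antisense gene HDAC2-AS2, the folds were 10.4, 9.09, 5.94 and 3.95, from pileups of 143, 91, 83 and 58 reads. DMSO was highest and the combination lowest, with intervals of 8.81 to 12.3 and 3.01 to 5.09, while the ATRA interval (7.34 to 11.1) overlapped that of DMSO, and the rank went from 61.4 to 34.8 with ATRA and to 13.6 with the combination, the largest drops of these comparisons among the 53 regions. At -9.9 kb (chr6:113980654-113981394) the folds were 8.52 with DMSO, 5.53 with ATRA and 4.03 with Corin, and the combination list had no call. The adjacent intronic region at -8.9 kb went the other way with ATRA, with folds of 10.8, 20.7, 7 and 12. Downstream of HDAC2, the region at +42.6 kb (chr6:113928309-113928884) was called with ATRA alone at 10.1 from 105 reads, but 31.4% of the 32-base stretches of its window had a copy elsewhere in the genome, with up to 26 copies. The part of repeated sequence in that call was not tested.

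**Figure D4:**
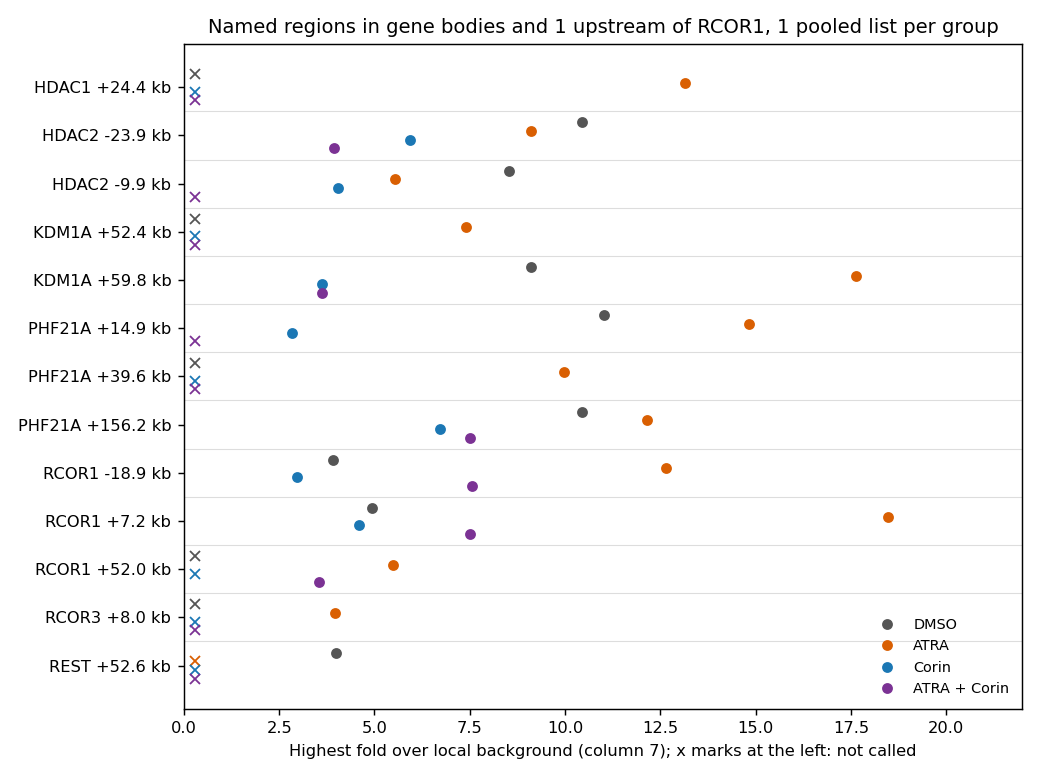
Highest fold over local background (x axis, from 0) of the named regions inside gene bodies and of RCOR1 at -18.9 kb, with 1 point for each list and crosses at the left where the region was not called. KDM1A at +59.8 kb, RCOR1 at +7.2 kb and PHF21A at +14.9 kb have their highest point with ATRA, and HDAC2 at -23.9 kb has its highest with DMSO.

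PHF21A, the longest of the 9 genes, had 6 of the 21 ATRA-only regions, 3 of them in the body more than 1 kb from a start. The strongest, intronic at +39.6 kb (chr11:46081759-46082035), had a fold of 9.98 (8.14 to 12.1) from 100 reads. Another intronic region, at +14.9 kb (chr11:46105963-46107146), had folds of 11.0 with DMSO, 14.8 with ATRA and 2.83 with Corin, and was not called with the combination. The Corin interval (2.03 to 3.84) lay far below those of DMSO (9.34 to 12.9) and ATRA (12.6 to 17.4). The DMSO and ATRA intervals overlapped, and their pileups were 151 and 149 reads over backgrounds of 12.8 and 9.12. The ratio of the ATRA fold to the DMSO fold there was 1.35, against a median of 1.24 over the regions called in all lists. The same order of folds, ATRA above DMSO above the lists with Corin, stood at +117.7 kb, with folds of 6.16, 10.3, 3.68 and 3.95, and at +114.9 kb, with 7.32, 11.9, 4.88 and 6.56. At +8.3 kb a region was called with DMSO at 5.80 and with ATRA at 5.44, and in neither list with Corin. Upstream, the region at -6.0 kb was the strongest near any of the 9 genes with DMSO, with folds of 23.5, 24.7, 21.8 and 21.6.

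HMG20B had no region called with ATRA alone, and its regions missing from some lists were faint. At -8.8 kb (chr19:3563749-3564609), inside MFSD12, the folds were 2.17 with DMSO and 2.03 with Corin, and at +13.6 kb, by a start of GIPC3, 2.09 with DMSO only. Neither was called in any list once lists were cut to equal length. In REST, the intronic region at +50.4 kb was strong in every list, with folds of 18.3, 21.9, 19.7 and 19.8. The region at +52.6 kb (chr4:56960366-56960553) was called with DMSO only, at 3.98 from 143 reads, and that at -1.3 kb (chr4:56906529-56906704) with ATRA only, at 2.26 from 191 reads over a background of 83.9. The shared promoter of NOA1 and POLR2B at +69.8 kb (chr4:56976854-56978471) had folds of 7.07, 8.82, 10.1 and 7.08, and the largest rank drop of the combination against Corin, from 63.3 to 38.5.

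Corin and DMSO could be compared by fold at 14 of the 32 gene-body regions, those called in both lists. After each list was centred on the median log2 difference of the 66303 shared regions, the fold was lower with Corin at 12 of the 14 (85.7%), with a median log2 difference of -0.57, against 54.3% and -0.04 over all such regions. Between the combination and ATRA it was lower at 10 of 13, with a median of -0.34, against 62.5% and -0.16. Between the combination and DMSO it was lower at 4 of 12 (33.3%), with a median of 0.10, against 52.6% and -0.03. Between the combination and Corin it was lower at 3 of 12 (25%), with a median of 0.35, against 49.3% and 0.01. Between ATRA and DMSO it was lower at 6 of 16, with a median of 0.10, against 41.7% and 0.11. These shares belong to the same subset chosen after its values were seen.

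By rank over all 53 shared regions, the 9 genes were near the background. With ATRA against DMSO, 6 regions ranked higher by at least 20 points and 6 lower (11.3% each), against 12.5% and 10.3% of all shared regions. With Corin 4 ranked higher and 3 lower, against 6.37% and 7.58%, and with the combination against DMSO 5 and 3, against 9.06% and 9.93%. For the combination against ATRA the counts were 7 and 7, against 9.6% and 12.2%, and against Corin 5 and 2, against 8.31% and 7.7%. The 4 higher with Corin were all among the 27 promoter regions (14.8%, 5.92 to 32.5), against 3.44% of all promoters. Of these 27, 1 ranked lower with Corin (3.7%, against 2.36%). With ranks taken within promoters and within other regions, 2 ranked lower with ATRA, none higher with Corin, and 2 higher with the combination against ATRA. The other 7 shares stayed within the Wilson intervals of the reported ones. The part of promoters as a class in these shifts was not tested.

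**Figure D5:**
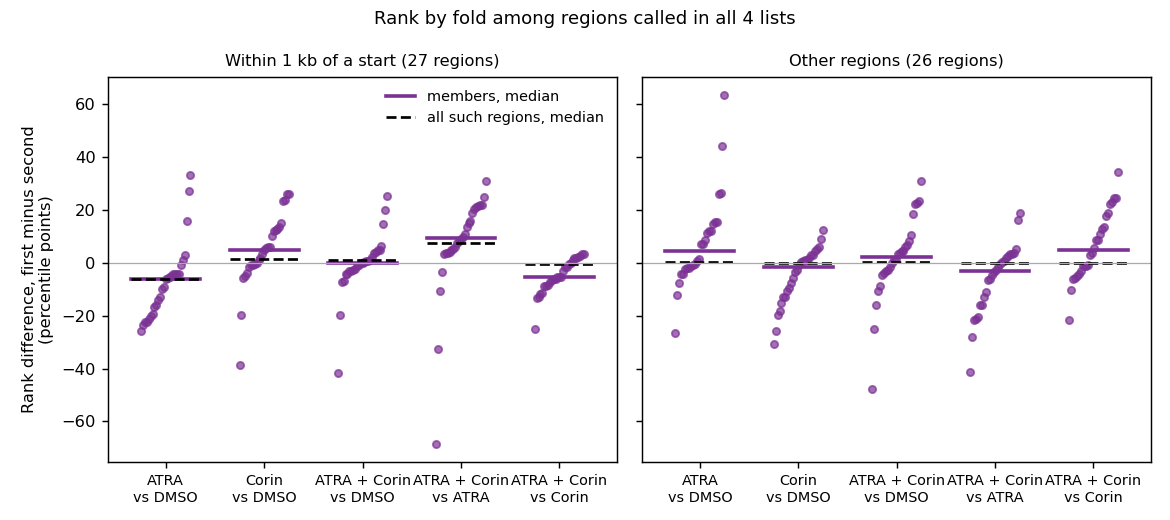
Difference in rank (y axis, percentile points, first list minus second) of the 53 regions called in all 4 lists, with 27 promoter regions on the left and 26 others on the right, each point a region, and lines for the medians of the 9 genes and of all such regions. Promoter points lie mostly below 0 for ATRA against DMSO and above 0 for the combination against ATRA, as the dashed lines of all promoters do.

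Genes of related complexes were read in the same way. Near 15 other CoREST-associated genes, ATRA gained 36 of 227 regions (15.9%) and lost 38 (16.7%), and the combination lost 48 of 212 (22.6%) of those called with ATRA or itself. Near 28 genes of other histone deacetylase complexes, such as SIN3A and NCOR1, the corresponding shares were 13.6% (47 of 345), 18% (62) and 18.1% (56 of 309). Over all regions the same shares were 18.5%, 20.7% and 25.4%. The difference of these lists from the 9 genes was not tested. The largest promoter rank shifts among them were those of TBL1X, a subunit of the NCOR complexes, at -37.4 points with ATRA, GPS2 of the same complexes at 36.9 with the combination against DMSO, and SNAI1, a repressor that binds KDM1A, at 26.8 with ATRA.

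The windows of the 9 genes reached into their neighbours. Of the 64 regions in the flanks, 38 lay inside the body of another protein-coding gene, and 23 of the 115 regions lay at the promoter of another gene, such as MARK2, TRAF5, PEX16 and TBXA2R. A region near a gene need not act on it, and the lists hold no RNA measurement.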

How the data were processed

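ATAC-seq of U-937 cells was read from 1 deposited peak list per group, with 8 samples in 4 groups per the labels and the replicates pooled by the authors. The submitters' processing notes name cutadapt, Bowtie2, SAMtools, Picard, MACS2 and hg38, without settings, and the file names add a naive overlap and a filter. In the deposited narrowPeak files the score column is the authors' scaled score, the fold column their ratio of pileup to local background, the p and q columns −log10 values, and the other column used the distance of the summit from the peak start. No peak end lay beyond its hg38 chromosome. No per-sample columns were left out (0).

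Overlapping peaks on 24 chromosomes were merged within lists and joined over the 4 lists by an overlap of at least 1 bp, with GENCODE release 44 for genes and 1 kb as the promoter limit. A region's rank is the percentile of its highest fold among regions called in all 4 lists, and a difference of 20 points or more was counted. Pileup and background were solved from p, as a Poisson probability, and from fold, with 1 added to both. All 300 pileups near the 9 genes were whole within 0.05. Exact Poisson intervals of the pileup, carried to the fold with the local background taken as known, and 95% Wilson intervals of shares cover counting error only. With 1 list per group no test was possible. Motifs were searched in 200 bp around the strongest summit, on both strands, overlaps between motifs included.

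The 9 genes, the other gene lists, motifs, markers and alternatives were chosen with earlier results of these data known. Named by rule were, for each gene, its start region strongest with DMSO, up to 2 regions missing from some list with the highest −log10 p, and for each comparison the largest rank rise and fall. Regions named beyond it, such as those at other intronic positions, the canonical start of PHF21A and the gene-body subset, were picked with their values in view. Alternatives tried were a −log10 q of at least 5, merging within 150 bp, 50% cover, windows of 10 kb, 50 kb or the gene body, lists of equal length, ranks by −log10 p, a 10-point shift, a centred fold ratio of 1.5, promoter limits of 500 bp and 2.5 kb, and, added after the data were seen, a shared lowest −log10 p, ranks within promoters and others, no promoters of other genes, canonical starts, and settings for the gene-body subset. Python 3.11.15, numpy 2.4.6, pandas 2.3.3, scipy 1.17.1 and matplotlib 3.10.9 were used, and the scripts were tested on simulated data. The sequence of 1 further window is not reported here.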

Additional observations from a re-analysis of the deposited data

How the results depend on the processing

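No paired analysis was possible because each group had 1 pooled list with no column for a replicate, and for the same reason no replicate could be left out. Of 241 values under 15 alternatives, 202 stayed within the interval or spread of the reported value and 39 moved, and the 24 under a shared lowest −log10 p of 2.79 did not move. The cause of the moves was not tested, beyond fewer regions under stricter settings. Read depth is unknown and limits the faint regions most.

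With −log10 q of at least 5, 55.9% of the regions were called in all 4 lists, ATRA lost 5.68% and Corin gained 4.29%. The combination gained 4.6% over ATRA and lost 7.58% against Corin. For calls in all lists, no share of all regions was taken at this setting or at equal length. With lists of equal length, 60.2% were in all lists, ATRA gained 15.6% and lost 3.9%, and Corin gained 7.14%. The combination there lost 13% against DMSO, 20.2% against ATRA (16% of all regions) and 8.22% against Corin. Inside gene bodies at equal length, ATRA gained 19% and the combination lost 35% against ATRA. A window of 50 kb held 177 regions, and the gene bodies alone 51. In those bodies, starts included, ATRA lost 4.08% and Corin gained 5.56%. The combination gained 2.86% over DMSO, 0% over ATRA and 3.12% over Corin, and lost 40.4% against ATRA. No share over all gene bodies with starts included was taken, so these shares cannot be set against a background. Higher ranks of the combination over DMSO were 3.03% within 10 kb and 3.7% in the bodies. Ranked by −log10 p, lower ranks were 1.89% with Corin, 5.66% for the combination against ATRA and 0% against Corin, where higher ranks were 3.77%. With a shift of 10 points, 24.5% were higher and 24.5% lower with ATRA, and 20.8% higher and 18.9% lower with Corin. At that shift 26.4% were higher for the combination against ATRA and 13.2% lower against Corin. A smaller shift counts more regions in any set. No share of all regions was taken at this or the other rank settings, so these rank shares cannot be set against a background. With ranks within promoters and within other regions, 3.77% were lower with ATRA, 0% higher with Corin and 3.77% higher for the combination against ATRA. Without promoters of other genes, 5.26% were lower with ATRA and 2.63% higher with Corin.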
